A study of Mus musculus with 14 samples.

Results

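The miR-23a/27a/24-2 and miR-23b/27b/24-1 clusters are a pair of related loci, each of which encodes a miR-23, a miR-27 and a miR-24 hairpin. Their 3p products are the subject here, namely miR-23a-3p, miR-23b-3p, miR-27a-3p, miR-27b-3p and miR-24-3p. The 5 members were chosen by name from 999 mature miRNA names in either of the 2 count tables (900 in the whole tissue table and 677 in the epithelial table). All 5 were listed in both tables and passed the count filter in each region. Small RNA was sequenced from the caput (head), corpus (body) and cauda (tail) of the epididymis of male Swiss mice aged 8 weeks. Whole tissue gave 8 libraries (3 caput, 2 corpus and 3 cauda), each pooled from several mice after the vasculature had been perfused with buffer. Epithelial cells gave 6 libraries (2 for each region), also pooled from several mice. Spermatozoa had been flushed from the cauda by retrograde perfusion and released from caput and corpus by incisions, so region and removal step cannot be told apart, and the tissue was then digested. Only the cells that remained in suspension after a plating step were kept, a step meant to remove fibroblasts and muscle cells by their attachment.

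In animals each cluster is transcribed as a single primary RNA, from which the hairpins are cut and trimmed to a pair of mature strands, 5p and 3p. A mature miRNA recognizes target mRNAs mainly through its seed, bases 2 to 8 from its 5′ end, and lowers their translation and stability. The clusters are best known from the endothelium and from cell differentiation. miR-23 represses glutaminase, miR-27 restrains adipocyte formation through targets such as Pparg, and miR-24 represses regulators of the cell cycle such as Myc.

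The mature sequences are shown because the paralogous products are nearly identical, which bears on how reads could be divided between them. RefSeq (GRCm38.p6) held a mature entry for 4 of the 5 members, and none was used for miR-23b-3p. Seeds are in capitals and the sequences run 5′ to 3′.
miR-23a-3p: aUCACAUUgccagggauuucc
miR-27a-3p: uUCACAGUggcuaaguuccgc
miR-27b-3p: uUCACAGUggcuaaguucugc
miR-24-3p: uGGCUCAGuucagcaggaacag
miR-24-2-5p: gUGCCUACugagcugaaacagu
miR-24-1-5p: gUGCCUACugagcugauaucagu
miR-27a-3p and miR-27b-3p shared 20 of 21 bases and the whole seed, and differed by C19U, counted from 1 at the 5′ end with the base of miR-27a-3p first. No mature miRNA in the RefSeq table other than these 2 carried their seed. miR-24-3p has the same sequence at both loci, so its count is the sum over both. Its seed is carried by 4 other mature names (miR-5124b, miR-6369, miR-6410 and miR-6413), none of which was listed in either count table. The 5p strands of the miR-24 hairpins, in contrast, were identical over their first 16 bases and then diverged, so that their reads can tell the loci apart.

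The miR-23a/27a/24-2 cluster lies on the forward strand at chr8:84208518-84208921 (GRCm38, 404 bases). Within it, the Mir23a hairpin lies at chr8:84208518-84208592, Mir27a at chr8:84208672-84208758 and Mir24-2 at chr8:84208815-84208921, with 79 and 56 bases between them. GENCODE vM21 annotates no other gene over Mir23a or Mir27a, and the long noncoding RNA Gm26532 overlaps the last 2 bases of Mir24-2. The miR-23b/27b/24-1 cluster lies on the forward strand at chr13:63300484-63301275 (792 bases), with Mir23b at chr13:63300484-63300557, Mir27b at chr13:63300712-63300784 and Mir24-1 at chr13:63301208-63301275. Here 154 and 423 bases separate the hairpins. This locus lies inside the protein-coding gene 2010111I01Rik on the same strand and within an intron of Fancc on the opposite strand. Mir23b is intronic in all 9 transcripts of 2010111I01Rik that span it. Mir27b is intronic in 8 of 9, and lies in an exon annotated as UTR in the remaining one. Mir24-1 is overlapped by an exon in 4 of 11 transcripts. At both loci a miR-3074 hairpin overlaps miR-24 on the opposite strand.

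**Figure D1:**
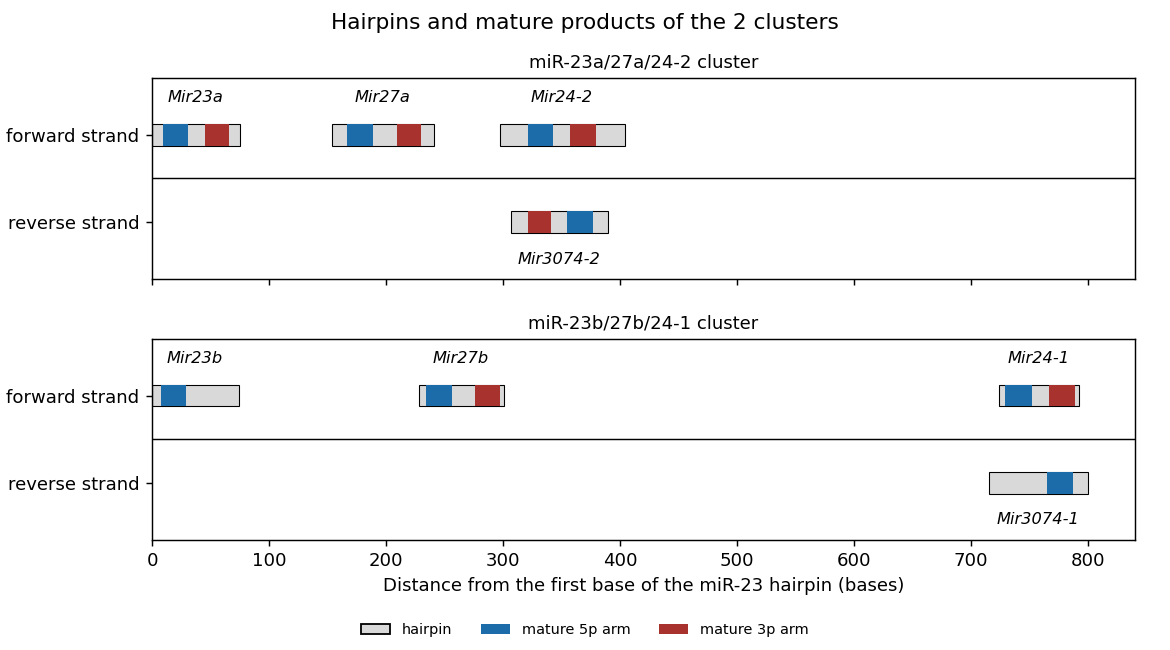
Hairpins (grey) and mature 5p (blue) and 3p (red) products of both clusters, drawn to scale as distance in bases from the first base of the miR-23 hairpin, by strand. The miR-23a/27a/24-2 cluster spans 404 bases and the miR-23b/27b/24-1 cluster 792 bases. The 3p arms of Mir23b and Mir3074-1 are not drawn, since the table used here had no entry for them.

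Whole tissue libraries held 1243398 to 2135501 counts and epithelial libraries 89039 to 362867, with both corpus libraries (127111 and 89039) the shallowest. The epithelial markers miR-200a-3p, miR-200b-3p, miR-200c-3p, miR-141-3p and miR-429-3p were above 0 in every region of the epithelial cells (summed level 13436 to 18680 counts per 1000000, CPM). Markers of other cells were also present there, with 4 of 4 listed smooth muscle names at a summed 144820 to 337485 CPM and 2 of 2 endothelial names at 13119 to 56784 CPM. In bulk samples, fewer cells of a type and less RNA per cell cannot be told apart. The methods and notes of the study describe the replicates in different terms, so p-values measure only the spread between these libraries, which may be technical. CPM values were put on 1 scale by TMM factors, which assume that most miRNAs do not differ between libraries. "Rose" and "fell" are used where the false discovery rate (FDR) was below 0.05, and "called" where the change was also at least 2-fold. Whether the libraries of a pair of regions overlapped is given as a description. With so few libraries they did not overlap for 74.9% (caput and corpus), 76.8% (corpus and cauda) and 80.8% (caput and cauda) of all miRNAs tested in whole tissue. In epithelial cells the shares were 66.3%, 65.1% and 74.5%.

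miR-27b-3p was by far the most abundant of the 5. It took 83.4 to 91.1% of the members' summed counts in the whole tissue libraries and 86.0 to 88.0% in the epithelial libraries. By mean CPM it ranked 13th in caput, 15th in corpus and 11th in cauda among 360 miRNAs identified in whole tissue, and 12th, 12th and 8th among 216 in epithelial cells. In all 8 whole tissue libraries the order by count was miR-27b-3p, miR-27a-3p, miR-23a-3p, miR-23b-3p and miR-24-3p. In the epithelial libraries miR-27b-3p was first and miR-24-3p last in 6 of 6, while the middle 3 changed places. The members with a sequence here are 21 or 22 bases long, so levels were compared without scaling to length, although ligation efficiency can differ between sequences. As the libraries of each preparation were tabulated separately, levels were not compared between preparations.

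In whole tissue miR-27b-3p was highest in the caput and lowest in the corpus. Its level was 18708, 20258 and 17952 CPM in the caput libraries, 11762 and 10324 CPM in the corpus, and 15337, 15362 and 18173 CPM in the cauda. The corpus libraries lay below all others, while the highest cauda library lay within the range of the caput. From caput to corpus miR-27b-3p fell by 0.78 on the log2 scale (SE 0.11, adjusted p = 0.00015 by limma), which was 1.72-fold lower, and under scaling by library totals the change was -0.45 (adjusted p = 0.0030). From corpus to cauda it rose by 0.56 (SE 0.11, adjusted p = 0.0014). Over the whole duct it was lower by a log2 change of -0.22 (SE 0.09, adjusted p = 0.047). This difference passed the threshold in 2 of 9 alternative analyses and had the opposite sign, 0.13 (adjusted p = 0.20), when libraries were scaled by their totals. It passed in 1 of 8 analyses that left out a library (-0.30 without cauda replicate 3) and lay between -0.20 and -0.10 in the other 7.

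miR-27a-3p, which differs from it at a single base, took another course. It was at 936, 851 and 771 CPM in the caput of whole tissue, 677 and 607 CPM in the corpus, and 1057, 1138 and 1162 CPM in the cauda. The regions did not overlap, with the cauda highest and the corpus lowest. It fell from caput to corpus (log2 change -0.41, SE 0.11, adjusted p = 0.012 by limma), although under scaling by library totals the change was -0.07 and did not pass. Without caput replicate 2 it was -0.34 (adjusted p = 0.064) and without corpus replicate 2 it was -0.27 (adjusted p = 0.19). It then rose from corpus to cauda by 0.80 (SE 0.11, adjusted p = 0.00022) and from caput to cauda by 0.40 (SE 0.10, adjusted p = 0.0036), the latter 0.75 under scaling by library totals.

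miR-23a-3p was the member with the largest difference between the ends of the duct in whole tissue. It stood at 543, 446 and 506 CPM in the caput, 515 and 535 CPM in the corpus, and 912, 994 and 1054 CPM in the cauda of whole tissue. Caput and corpus overlapped, and all 3 cauda libraries lay above them. Between caput and corpus the log2 change was 0.08 (adjusted p = 0.58 by limma), or 0.41 (adjusted p = 0.019) under scaling by library totals, and from corpus to cauda it rose by 0.90 (SE 0.11, adjusted p = 0.00011). Over the whole duct it rose by 0.98 (SE 0.10, 95% interval 0.76 to 1.21, adjusted p = 9.6e-06). This is 1.98-fold, just under the 2-fold needed for a call, and it crossed that line in 4 of 9 alternative analyses. It also did so without caput replicate 1, caput replicate 3, corpus replicate 1, corpus replicate 2 or cauda replicate 1, at 1.00 to 1.09 on the log2 scale.

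miR-23b-3p was likewise highest in the cauda, with a smaller difference. It stood at 522, 371 and 441 CPM in the caput, 424 and 432 CPM in the corpus, and 702, 663 and 698 CPM in the cauda. The corpus values lay within the range of the caput, and the cauda lay above both. The log2 change from caput to corpus was -0.04 (adjusted p = 0.81 by limma) and 0.29 under scaling by library totals, neither of which passed the threshold. It rose by 0.68 from corpus to cauda (SE 0.13, adjusted p = 0.0018) and by 0.64 from caput to cauda (SE 0.12, adjusted p = 0.00062), the latter 0.99 under scaling by library totals.

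miR-24-3p, the product shared by both loci, did not rise towards the cauda. It stood at 362, 309.8 and 357 CPM in the caput, 244 and 264 CPM in the corpus, and 268, 259 and 293 CPM in the cauda of whole tissue. The caput lay above both other regions, which overlapped. It fell from caput to corpus (log2 change -0.43, SE 0.12, adjusted p = 0.012 by limma) and was also lower in the cauda than in the caput (-0.33, SE 0.10, adjusted p = 0.014). Scaling by library totals left neither difference past the threshold (-0.10 and 0.02). The first did not pass without caput replicate 3 (-0.34, adjusted p = 0.065), corpus replicate 1 (-0.38, adjusted p = 0.076) or corpus replicate 2 (-0.44, adjusted p = 0.064). The second did not pass without caput replicate 1, caput replicate 3, corpus replicate 2 or cauda replicate 2 (-0.28 to -0.23, adjusted p = 0.052 to 0.12). Between corpus and cauda the log2 change was 0.10 (adjusted p = 0.47).

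**Figure D2:**
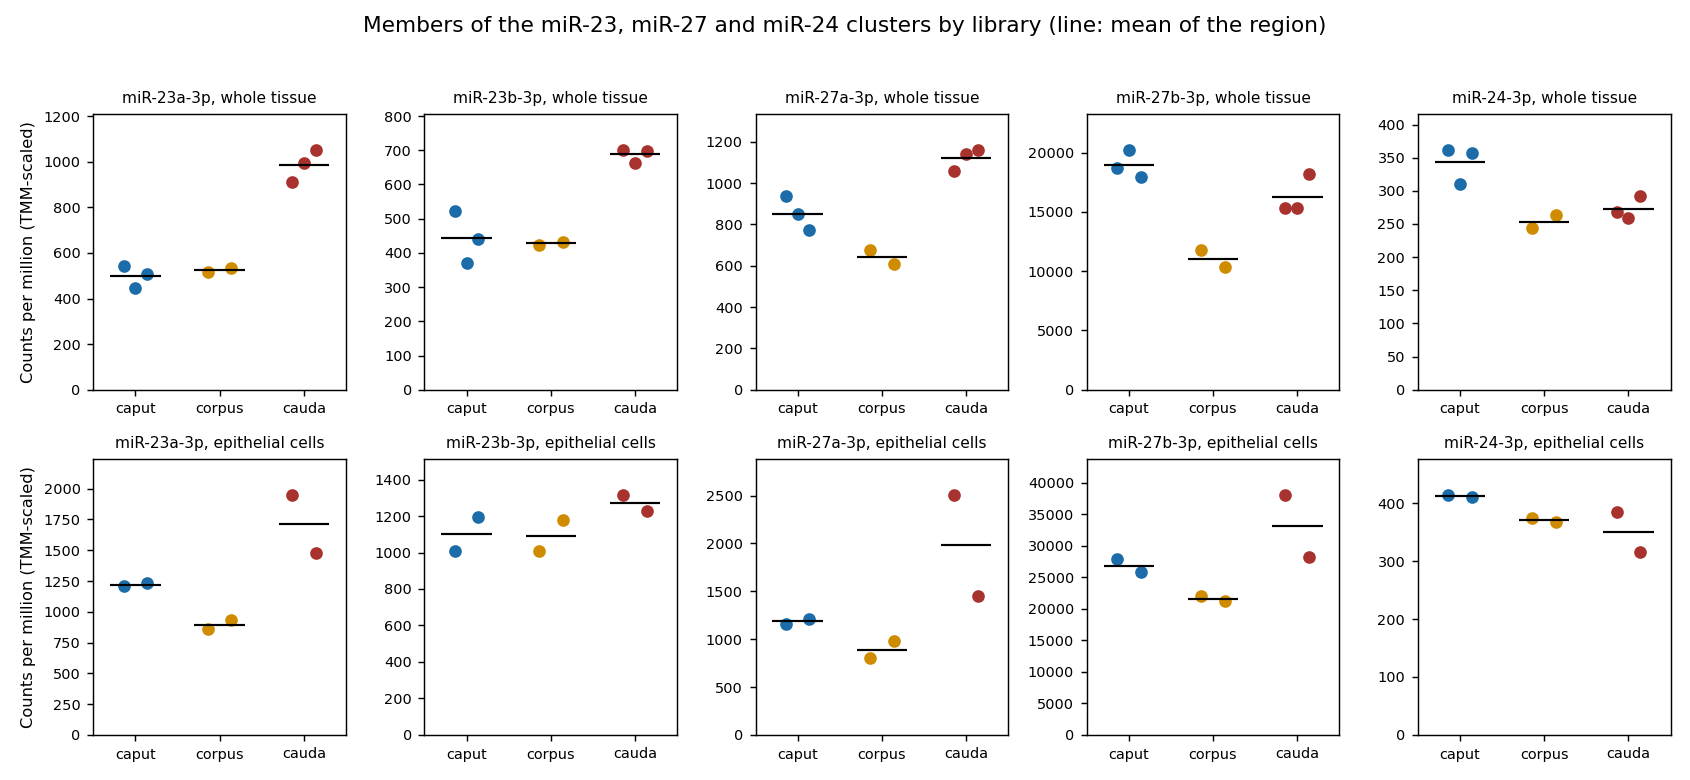
Level of each member in CPM (TMM-scaled, y axis from 0, a scale for each panel) in each library, by region, for whole tissue (upper row) and epithelial cells (lower row), with a line at the mean of the region. In whole tissue miR-23a-3p and miR-23b-3p were highest in all 3 cauda libraries, while miR-27b-3p and miR-24-3p had their highest mean in the caput.

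Counted together, 3 of 5 members fell and 0 rose from caput to corpus in whole tissue, where 32.6% of 334 miRNAs tested fell and 26.6% rose. From corpus to cauda 4 of 5 rose and 0 fell, where 27% of 341 rose and 27.3% fell. Between caput and cauda 3 of 5 rose and 2 of 5 fell, where 37.7% of 355 rose and 41.4% fell, and under scaling by library totals 3 rose and 0 fell. From caput to corpus fewer than 3 passed without caput replicate 2, where miR-27a-3p did not, or caput replicate 3, where miR-24-3p did not. From caput to cauda 3 in place of 5 passed without caput replicate 1, caput replicate 3 or cauda replicate 2. Fewer than 5 passed also without caput replicate 2 or cauda replicate 1, where miR-27b-3p did not. Leaving out a corpus library leaves 1 in that region, and no count is given here for it. The median log2 change of the members was -0.41, 0.68 and 0.40 in the 3 comparisons, beside -0.05, 0.05 and -0.05 over all miRNAs tested. None of the 5 reached a 2-fold change with an FDR below 0.05 in any of them by limma, edgeR or DESeq2's Wald test, while 29.9%, 27.3% and 53.2% of all miRNAs tested did by limma. The log2 change of miR-23a-3p from caput to cauda exceeded that of 70.7% of the miRNAs tested, and that of miR-27b-3p exceeded 44.8%.

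**Figure D3:**
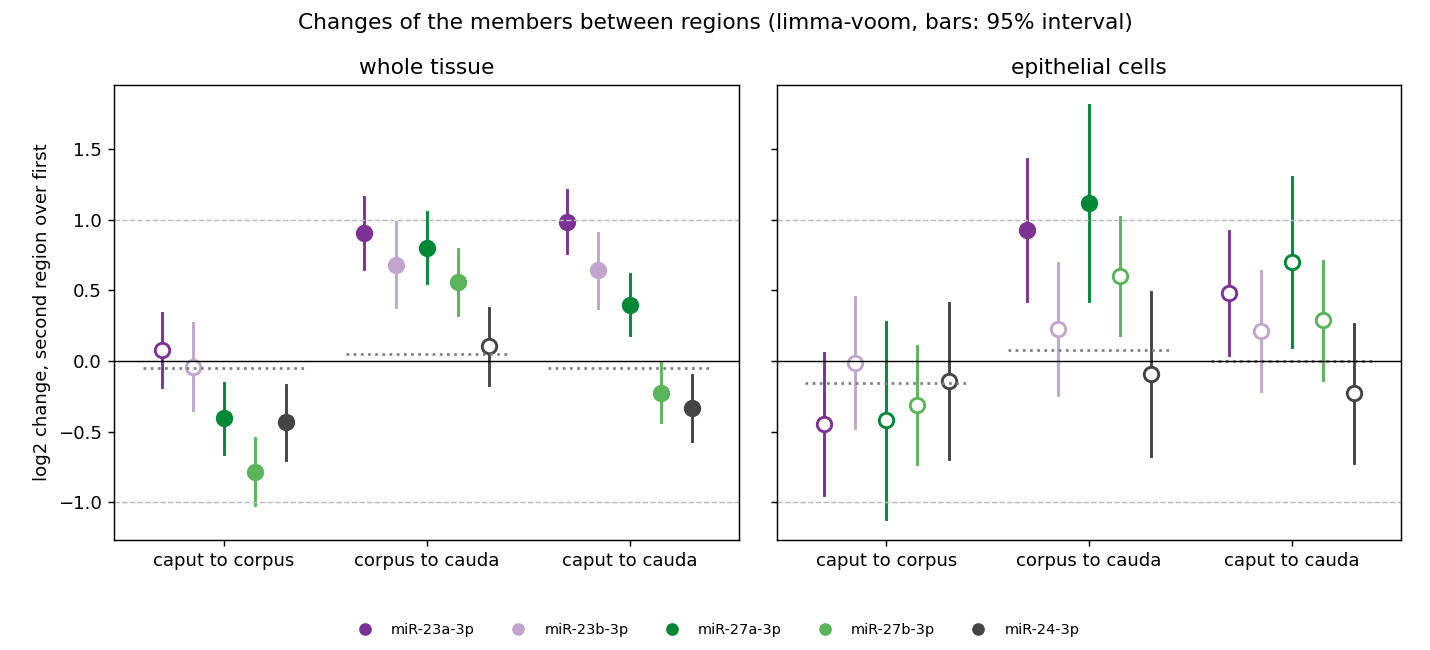
Log2 change of each member between regions (y axis, second region over first) with its 95% interval in whole tissue (left) and epithelial cells (right). Filled points had an FDR below 0.05, dashed lines mark 2-fold, and dotted lines mark the median of all miRNAs tested. From corpus to cauda 4 of 5 members rose in whole tissue and 2 of 5 in epithelial cells.

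Levels of other cell markers in whole tissue moved over the same regions. All 4 listed smooth muscle names were called higher in the cauda than in the caput (summed level 53248 to 66001 CPM in the caput, 76282 to 80379 in the corpus and 223246 to 249185 in the cauda), and none was at 0. All 5 epithelial names were called lower (20082 to 21762, 15519 to 16190 and 7246 to 8737 CPM). Of the 2 endothelial names, the summed level was 14782 to 18257 CPM in the caput, 13950 to 14749 in the corpus and 16404 to 17326 in the cauda, and 1 of 2 rose from caput to cauda. From caput to cauda 4 of 4 fibroblast names rose (1882 to 2158 CPM in the caput and 3339 to 3904 in the cauda), as did 5 of 5 leukocyte names (966 to 1161 and 1949 to 1994 CPM). So did 4 of 4 red blood cell names (87.3 to 97.8 and 847 to 1324 CPM) and all 7 germ cell names tested of 8 listed (3878 to 5191 and 8897 to 11262 CPM). None of these names was at 0 in the cauda, and their part in the changes of the members was not tested.

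In epithelial cells miR-27b-3p stood at 27854 and 25797 CPM in the caput, 21969 and 21178 CPM in the corpus, and 38066.5 and 28125 CPM in the cauda. The regions did not overlap, with the cauda highest and the corpus lowest. The log2 change from corpus to cauda was 0.60 (SE 0.18, adjusted p = 0.068 by limma), which did not pass here but did in 5 of 9 alternative analyses, among them the replicate block (0.61, adjusted p = 0.0495), and without cauda replicate 2 (0.79, adjusted p = 0.027). Its log2 change was -0.31 (adjusted p = 0.26) between caput and corpus and 0.29 (adjusted p = 0.24) between caput and cauda, the latter 0.48 (adjusted p = 0.037) under scaling by library totals.

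miR-27a-3p was the only member called in epithelial cells. It stood at 1163 and 1206 CPM in the caput, 805 and 977 CPM in the corpus, and 2509 and 1453 CPM in the cauda. Both cauda libraries lay above the rest, but they differed from each other by more than the caput and corpus libraries did. It rose by 1.12 from corpus to cauda (SE 0.30, 95% interval 0.43 to 1.81, adjusted p = 0.047 by limma), which was 2.17-fold. Without cauda replicate 1 the log2 change was 0.73 (adjusted p = 0.074), and without any one of the caput and corpus libraries it was 0.96 to 1.25 (adjusted p = 0.062 to 0.22), so that the call held only without cauda replicate 2. With the replicate number as a block it was 1.14 (adjusted p = 0.053). Between caput and cauda the log2 change was 0.70 (adjusted p = 0.064), with 1.08 (adjusted p = 0.0037) without cauda replicate 2 and 0.90 (adjusted p = 0.017) under scaling by library totals. Between caput and corpus it was -0.42 (adjusted p = 0.36).

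miR-23a-3p stood at 1207 and 1235 CPM in the caput, 862 and 931 CPM in the corpus, and 1951 and 1479 CPM in the cauda of epithelial cells. The regions did not overlap and had the same order as for miR-27a-3p. It rose from corpus to cauda by 0.93 (SE 0.22, adjusted p = 0.034 by limma). This passed in 1 of 6 analyses that left out a library, that without cauda replicate 2 (1.09), and was 0.73 to 0.98 (adjusted p = 0.060 to 0.19) in the other 5. Its log2 change was -0.44 (adjusted p = 0.19) between caput and corpus and 0.48 (adjusted p = 0.073) between caput and cauda. The latter was 0.67 (adjusted p = 0.015) without cauda replicate 2 and 0.68 (adjusted p = 0.022) under scaling by library totals.

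miR-23b-3p varied less, at 1007 and 1193 CPM in the caput, 1008 and 1177 CPM in the corpus, and 1317 and 1225 CPM in the cauda. Caput and corpus overlapped, and the cauda lay above both. Its log2 changes were -0.01 (adjusted p = 0.97 by limma) from caput to corpus, 0.23 (adjusted p = 0.46) from corpus to cauda and 0.21 (adjusted p = 0.37) from caput to cauda. The 95% interval of the last reached from -0.21 to 0.64, and its upper bound (0.638) lay just below the rise of miR-23b-3p seen in whole tissue (0.641). The difference between the preparations did not pass (-0.36, adjusted p = 0.28).

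miR-24-3p stood at 415 and 410.0 CPM in the caput, 374 and 368 CPM in the corpus, and 384 and 316 CPM in the cauda of epithelial cells. Corpus and cauda overlapped, with the caput above both. Its log2 changes of -0.14, -0.09 and -0.23 between caput and corpus, corpus and cauda, and caput and cauda did not pass (adjusted p = 0.71, 0.80 and 0.40 by limma), and the first was 0.02 under scaling by library totals. The counts behind these values were 36 to 133 per library. The 95% interval of the change from caput to cauda, -0.72 to 0.26, held both 0 and the value in whole tissue (-0.33).

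Of the 5 members, 0 rose and 0 fell from caput to corpus in epithelial cells, where 9.76% of 205 miRNAs tested rose, 9.27% fell and 12.2% were called. Between corpus and cauda 2 of 5 rose, 0 fell and 1 was called, where 7.81% of 192 rose, 5.73% fell and 10.9% were called. Without any one library other than cauda replicate 2, none of the 5 passed there, and without cauda replicate 2 all of miR-23a-3p, miR-27a-3p and miR-27b-3p did. Between caput and cauda 0 of 5 passed, where 20.8% of 216 rose, 18.5% fell and 25.9% were called. The number was 2 without cauda replicate 2 and 3 under scaling by library totals. At an unadjusted limma p below 0.05, 2 of the 5 differed between caput and cauda (50.5% of all tested) and 0 between caput and corpus (34.6%), and 0 of 5 passed the adjusted threshold in either comparison by DESeq2's Wald test or by edgeR. The median log2 change of the members was -0.31, 0.60 and 0.29 in the 3 comparisons, beside -0.15, 0.08 and 0.00 over all miRNAs tested.

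Both endothelial markers also differed between regions in this preparation. The summed level of miR-126-3p and miR-126-5p, as this table names them, was 25569 to 35827 CPM in the caput, 13119 to 14351 in the corpus and 46735 to 56784 in the cauda, with neither at 0 in any region. Both were called lower in the corpus than in the caput and higher in the cauda than in the corpus. The means of 4 of the 5 members had the same order of regions, although none of these passed from caput to corpus. This order was not particular to the endothelial names. Mean sums in caput, corpus and cauda were 669, 610 and 1486 CPM for leukocyte names and 428, 321 and 2282 CPM for red blood cell names. The share of all miRNAs with this order was not counted. For miR-23b-3p the caput and corpus means were close (1100.02 and 1093 CPM) and changed places under scaling by library totals, and miR-24-3p had another order. Leukocyte names summed to 471 to 867 CPM in the caput, 512 to 707 in the corpus and 1383 to 1589 in the cauda, and red blood cell names to 383 to 474, 207 to 435 and 1591 to 2972 CPM. Between caput and cauda all 2 leukocyte names tested of 5 and all 3 red blood cell names tested of 4 were called higher. Of the 5 epithelial names, 1 was called higher in the corpus than in the caput and 2 were called lower in the cauda than in the corpus, with 0 called between caput and cauda. The smooth muscle sum was 144820 to 196103, 210467 to 212658 and 158539 to 337485 CPM, with 0 of 3 names tested past the threshold in any comparison. Fibroblast names summed to 2929 to 3196, 4049 to 4390 and 4599 to 6869 CPM in the same order of regions, with 2 of 4 called higher in the cauda than in the caput. Germ cell names summed to 3755 to 4209, 1944 to 2781 and 2093 to 5413 CPM, lowest on average in the corpus. miR-471-5p was at 0 in caput and corpus and miR-880-3p at 0 in the caput. These names did not move together from caput to corpus. The log2 change was -0.88 for miR-34b-5p, -1.14 for miR-34c-5p and -0.98 for miR-449a-5p, but 2.81 for miR-741-3p and 3.33 for miR-881-3p. Of the 5 germ cell names tested there, 2 were called higher in the corpus than in the caput and 1 higher in the cauda than in the caput. The part of these cells in the changes of the members was not tested.

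**Figure D4:**
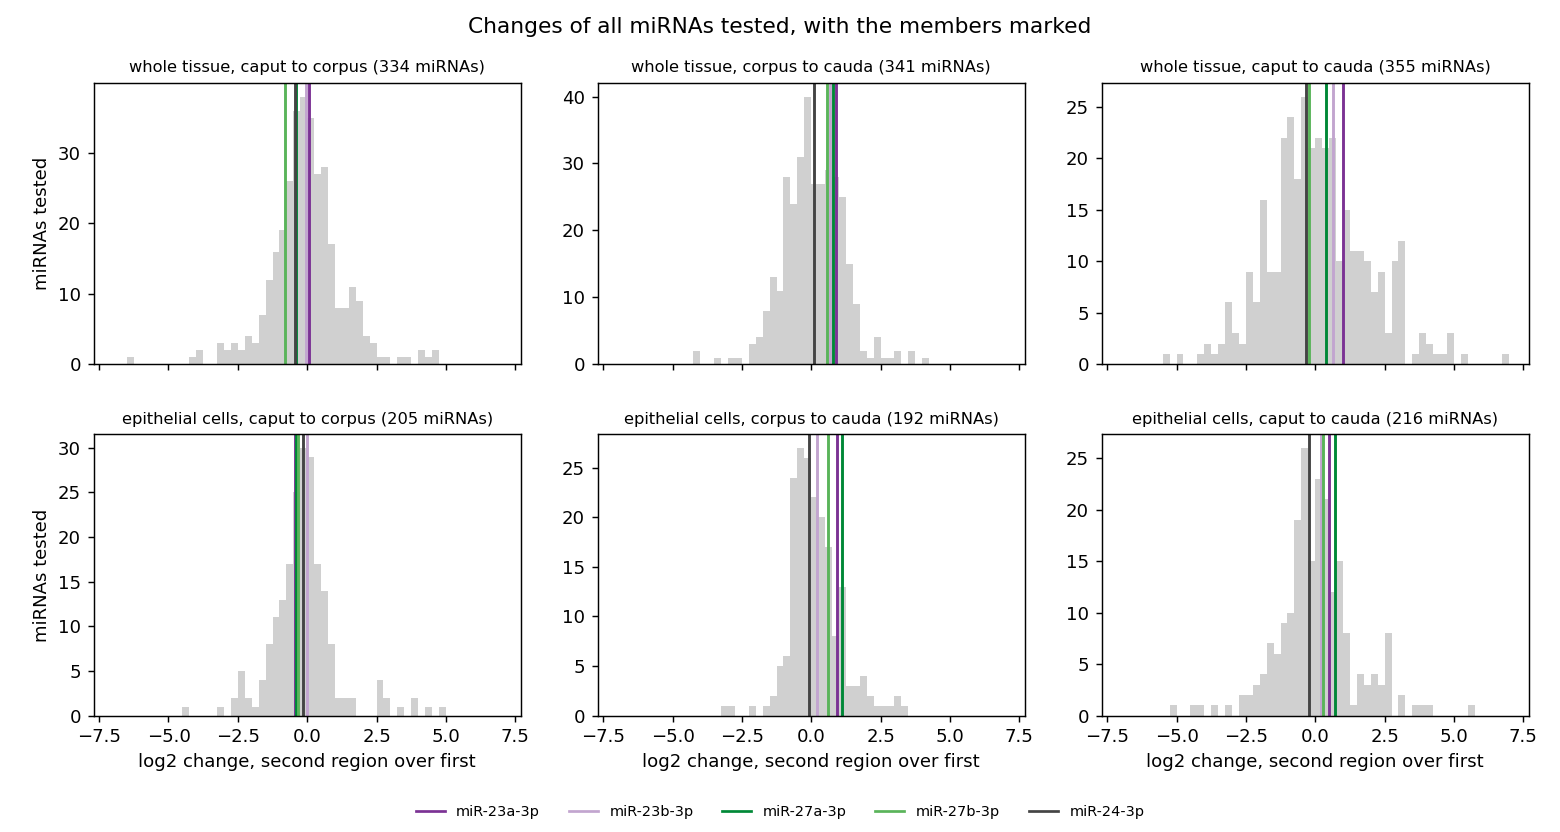
Histograms of the log2 change (x axis) of all miRNAs tested in each comparison (y axis, number of miRNAs), with vertical lines at the 5 members, for whole tissue (upper row) and epithelial cells (lower row). The members lie in the body of each distribution, between log2 changes of -0.78 and 1.12.

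Whether the changes along the duct differed between the preparations was tested by the interaction of preparation and region over 194 miRNAs. Between caput and cauda 1 of 5 members passed (32.0% of all tested), namely miR-27b-3p. Its log2 change was -0.22 for whole tissue and 0.29 for epithelial cells, and the difference between them was 0.56 in the joint fit (SE 0.18, 95% interval 0.18 to 0.94, adjusted p = 0.028 by limma). The median difference of all 194 was 0.38 in the same direction. Under scaling by library totals the difference of miR-27b-3p was 0.36 (adjusted p = 0.10), and that of miR-23a-3p passed in its place at -0.65 (adjusted p = 0.027). The difference of miR-27b-3p was 0.17 (adjusted p = 0.47) without cauda replicate 1 of the epithelial cells, 0.36 (adjusted p = 0.12) without cauda replicate 2, 0.51 (adjusted p = 0.11) without caput replicate 1, and 0.38 (adjusted p = 0.12) without corpus replicate 2 of whole tissue. In the comparisons of corpus with caput and of cauda with corpus 0 of 5 members passed (6.70% and 8.76% of all tested), and edgeR's quasi-likelihood test likewise gave 0. At an unadjusted p below 0.05, 1 member differed from caput to corpus (miR-27b-3p, where 21.1% of all tested did) and 0 from corpus to cauda (27.8%). The preparations were tabulated separately, so preparation and table cannot be told apart.

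Ratios of counts within a library need no scaling, and they compare mature products rather than whole clusters. In whole tissue miR-27b-3p exceeded miR-27a-3p 20.0-, 23.8- and 23.3-fold in the caput, 17.4- and 17.0-fold in the corpus, and 14.5-, 13.5- and 15.6-fold in the cauda. The 3 regions did not overlap, with the caput highest and the cauda lowest. An exact permutation test over the libraries (two-sided, 560 arrangements, smallest possible p = 0.0036) gave p = 0.011 for a difference between regions (adjusted p = 0.048 over 8 tests). The ratio of miR-23b-3p to miR-23a-3p, the other paralogous pair, was 0.96, 0.83 and 0.87 for the caput libraries, 0.82 and 0.81 for the corpus, and 0.77, 0.67 and 0.66 for the cauda. It had the same direction but missed the threshold (exact permutation p = 0.029, adjusted p = 0.057). Between caput and cauda of whole tissue the mean log2 ratio of the b to the a product differed by -0.62 for miR-27 and -0.34 for miR-23.

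Products of the same locus did not keep a constant ratio either. miR-27b-3p exceeded miR-23b-3p 35.9-, 54.7- and 40.7-fold in the caput of whole tissue, 27.7- and 23.9-fold in the corpus, and 21.8-, 23.2- and 26.0-fold in the cauda (exact permutation p = 0.018, adjusted p = 0.048). miR-27a-3p exceeded miR-23a-3p 1.72-, 1.91- and 1.52-fold in the caput, 1.31- and 1.13-fold in the corpus, and 1.16-, 1.14- and 1.1-fold in the cauda (exact permutation p = 0.014, adjusted p = 0.048). In both clusters the caput lay above the other regions, which were close to each other. Without any 1 of the 8 whole tissue libraries, 0 of the 3 ratios with an adjusted p below 0.05 (miR-27b-3p to miR-27a-3p, miR-27b-3p to miR-23b-3p and miR-27a-3p to miR-23a-3p) passed. With arrangements kept within replicate numbers 0 passed either (exact permutation, adjusted p = 0.15, 0.17 and 0.15 in the same order). The smallest adjusted p possible was 0.056, and none of the 3 reached it.

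In epithelial cells the ratio of miR-27b-3p to miR-27a-3p was 23.9 and 21.4 for the caput libraries, 27.3 and 21.7 for the corpus, and 15.2 and 19.4 for the cauda. That of miR-23b-3p to miR-23a-3p was 0.83 and 0.97 for the caput libraries, 1.17 and 1.26 for the corpus, and 0.67 and 0.83 for the cauda, with the corpus above both other regions. With 2 libraries per region an exact permutation test over 90 arrangements cannot go below p = 0.067, and that pair of miR-23 products reached this value (adjusted p = 0.11). The ratio of miR-27b-3p to miR-23b-3p was 18.0 to 28.9 over the 6 libraries and that of miR-27a-3p to miR-23a-3p 0.93 to 1.29 (exact permutation p = 0.40 and 0.53).

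**Figure D5:**
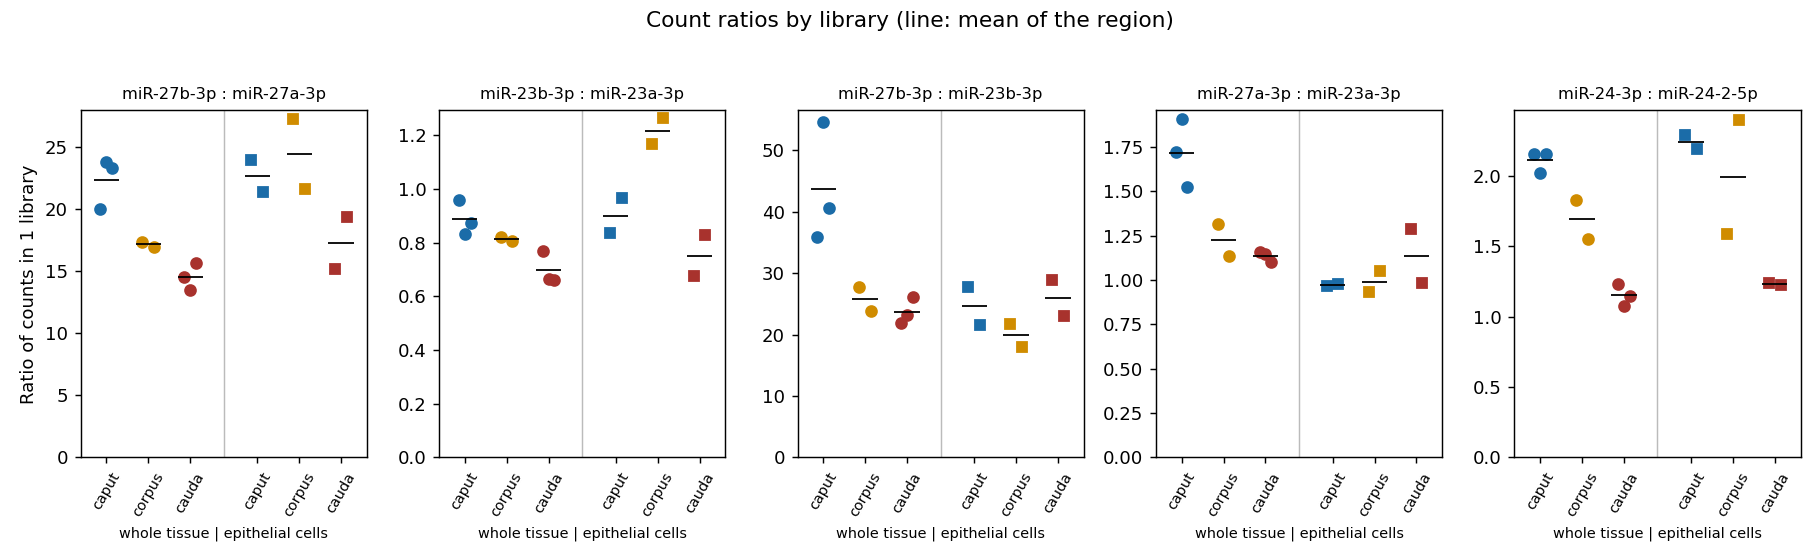
Ratio of the counts of a pair of products in each library (y axis from 0), by region, for whole tissue (circles) and epithelial cells (squares), with a line at the mean of the region. The ratio of miR-27b-3p to miR-27a-3p in whole tissue ran from 20.0 to 23.8 in the caput to 13.5 to 15.6 in the cauda, and that of miR-24-3p to miR-24-2-5p from 2.02 to 2.16 to 1.08 to 1.23.

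Fractional values, all midway between whole counts, occurred in the near-identical pairs. In whole tissue miR-23a-3p and miR-23b-3p both held such a value in the same 4 of 8 libraries, and miR-27a-3p and miR-27b-3p in the same 3 of 8. In epithelial cells this was so in 1 of 6 libraries for miR-23 and 4 of 6 for miR-27. The sum of each pair was whole in every library (within 0.01 counts), while miR-24-3p was whole in all 14. How reads matching both names were divided is not given in the sources used here, so the levels of each pair and their ratio are uncertain to that extent. When each pair was summed, the miR-23 sum rose by 0.84 from caput to cauda in whole tissue (adjusted p = 2.9e-05), and the miR-27 sum, which is mostly miR-27b-3p, changed by -0.18 (adjusted p = 0.089 by limma).

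The 5p strands of the same hairpins were far scarcer, with the exception of miR-24-2-5p. In whole tissue miR-27b-5p had 82 to 123 counts per library and miR-27a-5p 30 to 72, so the 3p strand exceeded the 5p strand 169- to 355-fold for miR-27b and 20.6- to 37.0-fold for miR-27a. Neither 5p strand passed the test in any of the 3 comparisons of whole tissue, while under scaling by library totals miR-27a-5p rose from caput to cauda (0.59, adjusted p = 0.012 by limma). The 3p to 5p ratio of miR-27b was 239 to 355 for the caput, 169 and 175 for the corpus and 227 to 331 for the cauda, with the corpus libraries below all others. In epithelial cells miR-27b-5p had 1 to 9 counts per library and miR-27a-5p 2 to 6, too few to compare regions. miR-23a-5p reached at most 2 counts and miR-23b-5p 1 in a whole tissue library. A count of 0 allows up to 3 counts, which is 1.40 to 2.41 CPM of the unscaled total in whole tissue and 8.27 to 33.7 in epithelial cells. Such limits cover counting error only.

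miR-24-2-5p, from the miR-23a/27a/24-2 locus, had 178 to 432 counts per library in whole tissue, and miR-24-1-5p, from the other locus, 1 to 8. Over all libraries these were 2466 against 28 counts in whole tissue and 297 against 4 in epithelial cells. miR-24-2-5p stood at 168, 153 and 166 CPM in the caput, 133 and 169.9 CPM in the corpus, and 217, 240.2 and 255 CPM in the cauda of whole tissue. The cauda lay above the other regions, which overlapped. It rose from corpus to cauda by 0.65 (SE 0.14, adjusted p = 0.0032 by limma) and from caput to cauda by 0.54 (SE 0.12, adjusted p = 0.0021), the latter 0.89 under scaling by library totals. The opposite strand, miR-24-3p, is counted over both loci. It was lower in the cauda than in the caput of the same libraries (log2 change -0.33), but not under scaling by library totals (mean 296.3 CPM in the caput and 299.6 in the cauda). The ratio of miR-24-3p to miR-24-2-5p was 2.02 to 2.16 for the caput, 1.55 and 1.83 for the corpus and 1.08 to 1.23 for the cauda of whole tissue. It was 2.19 and 2.29, 1.59 and 2.40, and 1.22 and 1.24 in the same regions of epithelial cells. In both preparations the cauda lay below the caput without overlap. This ratio was looked at after its values were seen and is given without a test. In epithelial cells miR-24-2-5p stood at 181 and 187 CPM in the caput, 236 and 153 CPM in the corpus, and 310 and 258 CPM in the cauda, and its log2 change from caput to cauda was 0.63 (adjusted p = 0.094 by limma) and 0.81 (adjusted p = 0.040) under scaling by library totals. The antisense products miR-3074-5p and miR-3074-1-3p reached at most 1 and 4 counts in a library of either preparation.

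The miRNAs whose levels ran most like each member were found by the root mean square difference of log2 CPM, centred over the libraries of a preparation. In whole tissue (263 candidates, 8 libraries) miR-23a-3p was nearest to miR-300-3p (0.09), miR-411-5p (0.14) and miR-199b-5p (0.19), beside a median of 0.73 over all candidates. miR-23b-3p was nearest to miR-532-5p (0.14), miR-127-3p (0.14) and miR-152-5p (0.17), and miR-27a-3p to miR-181a-1-3p (0.10), miR-152-5p (0.13) and miR-532-5p (0.16). miR-27b-3p was nearest to miR-30a-3p (0.15), miR-15a-5p (0.15) and miR-181c-5p (0.17), and miR-24-3p to miR-100-5p (0.11), miR-125b-2-3p (0.12) and miR-30c-5p (0.12). Among the members themselves the closest pair was miR-23a-3p with miR-23b-3p (0.17) and the most distant miR-23a-3p with miR-24-3p (0.57).

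In epithelial cells (136 candidates, 6 libraries) the closest pair of members was miR-23a-3p with miR-27b-3p (0.15), followed by miR-23a-3p with miR-27a-3p (0.15). miR-23a-3p was nearest to miR-15a-5p (0.15), miR-15b-5p (0.18) and miR-100-5p (0.22), and miR-27b-3p to miR-181a-5p (0.13), miR-100-5p (0.14) and miR-15a-5p (0.15). miR-27a-3p was nearest to miR-140-5p (0.20), miR-30a-3p (0.28) and miR-15a-5p (0.28). miR-23b-3p was nearest to miR-19b-3p (0.11), miR-221-3p (0.13) and miR-148b-3p (0.16), and miR-24-3p to miR-29a-3p (0.11), miR-378-3p (0.11) and miR-148b-3p (0.14), though both varied little themselves (0.14 and 0.13 around their own means). These values describe the libraries, which share depth and scaling within a preparation, and no test was made of them.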

How the data were processed

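The authors sequenced small RNA libraries, aligned trimmed reads to the mouse genome (mm10) and counted mature miRNAs of miRBase, and the submitters' processing notes name CASAVA 1.8.2, Bowtie 1.1.1 and limma. The expected counts deposited for each mature miRNA and library were not normalized. The epithelial table had 0.001 added to every value, which was removed. How reads matching several miRNAs were treated is not given in the sources used here. No per-sample columns were left out (0).

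Expected counts were rounded. A miRNA was kept with a mean count above 10 in any region. TMM factors came from edgeR 4.0.16, and limma-voom (version 3.58.1 under R 4.3.3) fitted a mean for each region, in 1 fit per preparation. Benjamini-Hochberg adjustment ran over the miRNAs with a mean above 10 in either region compared, and calls needed an FDR below 0.05 and a 2-fold change. Intervals are at 95%. The interaction fit joined all 14 libraries. Ratios of members were tested by exact permutation of libraries. Alternatives included edgeR's quasi-likelihood test, DESeq2 1.42.0, other scalings and filters, the replicate block and leaving out each library. The limma-voom fits, but not the ratio tests, were also run on simulated data with known changes.

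The range of total counts per library, which bears on the precision, is given in the report. No 2 libraries of a region were alike within counting noise (chi-square per degree of freedom 8.07 to 67.8). In whole tissue, same-numbered caput and cauda libraries deviated together (r = 0.21, 0.12 and 0.11 over 360 miRNAs), which is the criterion used for pairing there. Among differently numbered pairs of these regions, caput 3 with cauda 2 gave 0.09 and the rest -0.20 to 0.001. The main fits and permutations did not use the pairing, which entered only through the replicate block. Same-numbered corpus and cauda libraries gave 0.22 and 0.13, but corpus 2 with cauda 3 gave 0.17, and caput and corpus gave 0.01 and -0.01. In epithelial cells r was 0.20 for caput and corpus, -0.02 for corpus and cauda and -0.06 for caput and cauda. The pairing rests on these correlations and not on the labels. Replicate numbers are those of the labels. A table of the study lists the epithelial libraries of each region in the reverse order, which leaves the same pairs but would exchange the numbers 1 and 2.

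The members, the marker lists and the rule for named miRNAs (the members, the other products of the 2 clusters, and the 3 miRNAs nearest to each member in pattern) were chosen with earlier results of these data known. Positions are from RefSeq (GRCm38.p6) and GENCODE vM21.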

Additional observations from a re-analysis of the deposited data

Results flagged for a closer look

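The change of miR-27b-3p from caput to cauda differed between the preparations by 0.56 on the log2 scale (epithelial cells less whole tissue, interaction term, adjusted p = 0.028 by limma), with a log2 change of -0.22 for whole tissue and 0.29 for epithelial cells. Over the 4 other analyses of all libraries the difference was 0.36 to 0.56 (adjusted p = 0.028 to 0.10). It was 0.17 (adjusted p = 0.47) without cauda replicate 1 of the epithelial cells, 0.36 (adjusted p = 0.12) without cauda replicate 2, 0.38 (adjusted p = 0.12) without corpus replicate 2 of whole tissue, and 0.51 (adjusted p = 0.11) without caput replicate 1 of the epithelial cells. Without cauda replicate 1 or 2 of whole tissue it was 0.51 and 0.52 (adjusted p = 0.050 and 0.054). The median difference over all 194 miRNAs was 0.38.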

How the results depend on the processing

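In whole tissue the count of members called from caput to cauda, 0 in the analysis reported, was 1 with DESeq2 size factors, with library totals, with a filter of at least 10 counts in every library and with only the 2 regions in the fit, and 0 to 1 when a library was left out. The member was miR-23a-3p. In epithelial cells the 1 member called from corpus to cauda (miR-27a-3p) became 0 with only the 2 regions in the fit, with the replicate block and with the near-identical pairs summed, and 0 to 2 when a library was left out. From caput to cauda it was 0 to 1, the 1 being miR-27a-3p without cauda replicate 2. The count of members differing between preparations from caput to cauda was 2 with the pairs summed, since both miR-27 names then hold the same sum, and 0 to 1 when a library was left out. The 3 ratios past the threshold became 0 with the replicate block (exact permutation, adjusted p = 0.15 to 0.17). The smallest adjusted p that its arrangements allow is 0.056. They also became 0 without any one caput or cauda library of whole tissue, and epithelial libraries do not enter these ratios. The replicate block changed no other count of members, although from corpus to cauda in epithelial cells miR-27b-3p passed the FDR in place of miR-27a-3p.

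Under library totals the changes from caput to cauda in whole tissue reversed for miR-27b-3p (0.13) and miR-24-3p (0.020), where the median over all miRNAs moved from -0.05 to 0.30. That of miR-27a-3p reversed (-0.18) with the pairs summed, by construction. Library totals also moved the share of calls that were higher from 47.0 to 68.5% (whole tissue, caput to corpus), 52.4 to 63.9% (caput to cauda), and in epithelial cells 52.0 to 66.7% and 53.6 to 67.2%. Over the 30 changes of single members, 235 of 270 alternative values and 173 of 210 with a library left out kept their direction and their side of the threshold. The number of all miRNAs called moved by over 1.5 times in whole tissue with 10 counts required in every library (100 to 64 from caput to corpus, 189 to 115 from caput to cauda), where fewer miRNAs are tested. In epithelial cells it moved from 25 to 53 and from 21 to 37 without a filter, and from 56 to 28 with the strict filter. Differing miRNAs from caput to corpus between preparations moved from 13 to 5 with library totals. The cause of these other differences was not tested. The epithelial corpus libraries were the shallowest, and the part of depth in the comparisons that use them was not tested.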
